A study of Mus musculus with 130 samples.

Results

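The 63 genes described here had at least 2 times the level of both wild-type libraries in each of 4 mutant lines of mouse embryonic stem cells, 2 of which carry mutations of the histone methyltransferase G9a or its partner GLP and 2 of which lack DNA methyltransferases. The level is the deposited TPM, a length-scaled share of each library, with 1 TPM added to each value before the ratio was taken. Of 52550 genes in the files, 95 met these ratios, which is 0.643% of the 14782 genes with at least 1 TPM in at least 1 of the 6 libraries used. Of these, 32 were left out by name, being Mage, Xlr, Rhox, Zscan4, Pramel or Nlrp4 family members or one of Dnmt3l, Asz1, Fkbp6, Ascl2, Khdc3, Aass, H19, Meg3, Rian, Elobl and Cdkn2b, and the 63 that remained make up 0.426%. The mutant and wild-type TPM values chose these genes, so those values are given below as a description and with no test.

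The 4 mutant lines were G9a-/-;GLP-/- cells (clone 248-6, called G9a/GLP DKO), G9a-/- cells carrying the transgene Tg(Y1120V;Y1207F), which encodes catalytically mutant G9a (clone G7, called G9a CM), and the lines lacking Dnmt3a and Dnmt3b (Dnmt3a/3b DKO) or Dnmt1, Dnmt3a and Dnmt3b (Dnmt1/3a/3b TKO). Their wild types were TT2, of C57BL/6xCBA strain, for the G9a lines and J1, of 129S4/SvJae strain, for the Dnmt lines. A separate series held wild-type TT2 cells given UNC0638, a small-molecule inhibitor of G9a and GLP, with RNA taken on day 2, 4 or 14. Its control received vehicle alone. The sample titles give a dose of 250 nM and the treatment protocol gives 250 µM, and no label states if the 14 days were spent under treatment from start to end. All cells were grown on gelatin with serum and LIF, and total RNA was sequenced after Smart-seq2, a full-length cDNA amplification. Each group was 1 library and each mutant line 1 clone, so the spread between cultures is unknown and the effects of a mutation and of a clone's history cannot be told apart. Differences are therefore called by size alone: a gene is called higher or lower when its (TPM + 1) ratio is at least 2 or at most 0.5, and intervals given are exact 95% intervals of the count ratio, which cover counting error only.

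G9a and GLP, encoded by Ehmt2 and Ehmt1, form a heterodimer that places H3K9me2, a mark of silent euchromatin. Dnmt3a and Dnmt3b add methyl groups to CpG sites de novo and Dnmt1 copies them after replication. Both marks are known in embryonic stem cells for repression of genes of the germ line and of other tissues, and the G9a complex is known to recruit DNA methyltransferases to some of its targets.

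Total counts ran between 11436808 and 25609600 per library. Ehmt1 was at 6.71 TPM in the library labelled G9a/GLP DKO, against 23.9 TPM in WT TT2, while Ehmt2 was at 13.01 TPM in it, against 10.1 TPM in WT TT2. Dnmt1 was at 2.04 TPM in Dnmt1/3a/3b TKO cells, against 15.7 TPM in WT J1. Dnmt3b was at 1.02 TPM in Dnmt3a/3b DKO cells and 0.81 TPM in Dnmt1/3a/3b TKO cells, against 5.30 TPM in WT J1, whereas Dnmt3a was at 5.07 and 4.49 TPM in them, against 4.66 TPM in WT J1. Whole-gene TPM therefore did not show the labelled loss of G9a or Dnmt3a, and the files do not say which exons were deleted. All 5 embryonic stem cell markers were at 1 TPM or more in all 10 libraries. Their summed level was 948 to 1810 TPM in the mutants, against 1460 TPM in WT TT2 and 1210 TPM in WT J1, and 2140 to 2450 TPM in the UNC0638 libraries, against 2290 TPM in their vehicle control. Zfp42 alone gave 618 to 1471 TPM of this sum in the mutants, against 1233 TPM in WT TT2 and 960 TPM in WT J1. It gave 1467 to 1761 TPM in the UNC0638 libraries, against 1552 TPM in the vehicle control.

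Many of the 63 genes were under 1 TPM in the wild types, and by the rule their median level was higher in each mutant. The median level was 14.7 TPM in the library labelled G9a/GLP DKO, 11 TPM in that of G9a CM, 7.63 TPM in Dnmt3a/3b DKO cells and 10.3 TPM in Dnmt1/3a/3b TKO cells, against 1.02 TPM in WT TT2 and 0.38 TPM in WT J1. Under 1 TPM were 31 of the 63 in WT TT2 and 43 in WT J1, and 3 and 13 had no counts in those libraries. RefSeq lists 47 as protein-coding and 10 as another type, and 6 have no RefSeq entry. Grouped by their known roles, 9 are germ cell genes, 9 encode secreted or surface proteins, 6 are immune and blood genes, 16 are other named genes and 23 have no standard name or are noncoding. This grouping was made after the values were seen. The lowest mutant reached at least 3 times the higher wild type for 21 genes and under 2.5 times for 33, on the (TPM + 1) scale. These are bulk libraries, in which more cells expressing a gene and more RNA per cell cannot be told apart.

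**Figure D1:**
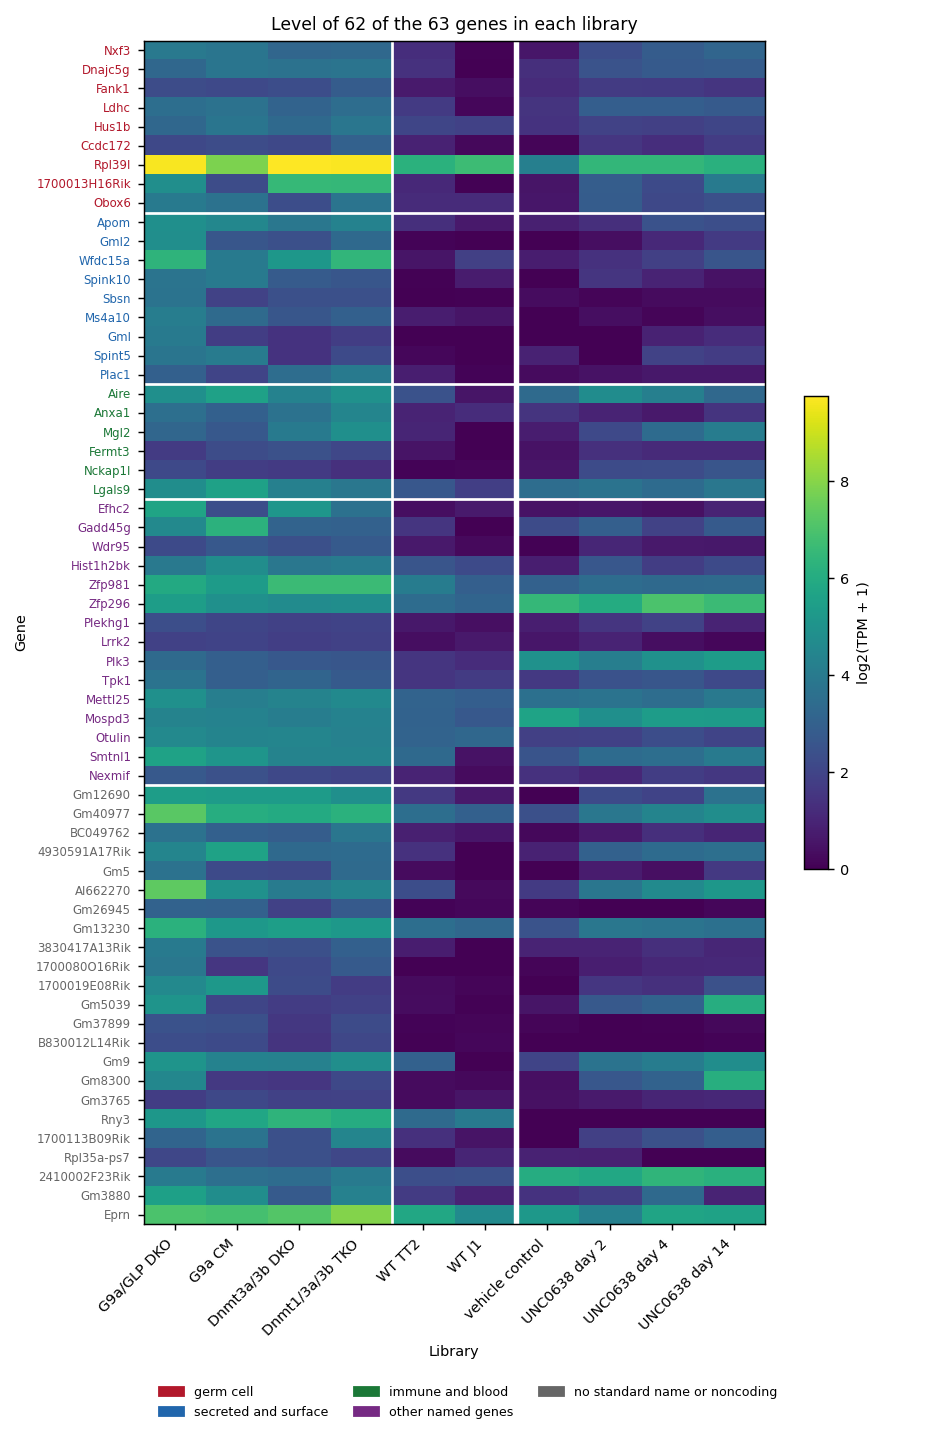
Level of 62 of the 63 genes (rows, coloured by role) in each of the 10 libraries (columns), as log2(TPM + 1). The 4 mutant columns on the left are brighter than the 2 wild-type columns beside them by the way the genes were chosen, and the 4 columns on the right, the vehicle control followed by UNC0638 on days 2, 4 and 14, were not used in the choice.

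The range among the mutants themselves was wide for some genes and narrow for others. The highest mutant TPM was a median of 2.39 times the lowest, under 2 times for 21 genes and over 10 times for 7. Lrrk2, a leucine-rich repeat kinase, was the most even, at 2.68 TPM in G9a/GLP DKO, 2.9 TPM in G9a CM, 2.5 TPM in Dnmt3a/3b DKO and 2.73 TPM in Dnmt1/3a/3b TKO cells, against 0.29 TPM in WT TT2 and 0.60 in WT J1. 1700013H16Rik, an X-linked germ line gene, was the least even, at 27.3 TPM in G9a/GLP DKO, 3.81 TPM in G9a CM, 91.5 TPM in Dnmt3a/3b DKO and 89.9 TPM in Dnmt1/3a/3b TKO cells, against 1.19 TPM in WT TT2 and 0.05 in WT J1. Of the 63, 33 were highest in G9a/GLP DKO cells, 13 in G9a CM cells, 5 in Dnmt3a/3b DKO cells and 12 in Dnmt1/3a/3b TKO cells. At the edge of the rule, Nexmif, Smtnl1, Eprn, Otulin and Gm3880 had smallest ratios of 2.01 to 2.058, and Atg13, Stmn2, Timm8a2, Grhl2 and Mybpc1, just outside it, had 1.998 to 1.988.

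Promoter sequences were compared because DNA methylation, which Dnmt enzymes place, falls on CpG sites. Methylation itself was not analysed here. RefSeq windows of GRCm38.p6, 300 bases long with 250 before the transcription start and 50 after it, were found for 40 of the 63 genes and for 10143 of the 14782. The following 5 were selected to show windows with CpG observed over expected ratios of 0 to 0.836, and each belongs to a gene whose levels are given below. They are written 5′ to 3′ on the gene's strand, with every CpG in capitals.
Rpl39l: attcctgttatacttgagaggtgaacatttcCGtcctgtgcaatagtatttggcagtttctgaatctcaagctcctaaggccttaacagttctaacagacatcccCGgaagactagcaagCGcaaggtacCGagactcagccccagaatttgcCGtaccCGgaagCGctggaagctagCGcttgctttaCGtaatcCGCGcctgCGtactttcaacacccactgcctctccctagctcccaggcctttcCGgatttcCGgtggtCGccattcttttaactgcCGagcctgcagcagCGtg
1700013H16Rik: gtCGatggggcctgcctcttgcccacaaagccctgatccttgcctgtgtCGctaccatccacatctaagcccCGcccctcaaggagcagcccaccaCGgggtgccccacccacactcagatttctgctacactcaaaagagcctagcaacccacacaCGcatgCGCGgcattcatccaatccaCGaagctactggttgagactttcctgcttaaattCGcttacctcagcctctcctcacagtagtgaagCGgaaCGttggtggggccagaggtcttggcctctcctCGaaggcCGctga
Mgl2: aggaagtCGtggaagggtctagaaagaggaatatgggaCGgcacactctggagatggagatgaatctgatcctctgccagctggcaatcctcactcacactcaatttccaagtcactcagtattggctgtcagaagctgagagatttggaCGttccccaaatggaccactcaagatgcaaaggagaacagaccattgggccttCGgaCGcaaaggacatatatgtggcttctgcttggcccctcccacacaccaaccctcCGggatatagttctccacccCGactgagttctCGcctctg
Apom: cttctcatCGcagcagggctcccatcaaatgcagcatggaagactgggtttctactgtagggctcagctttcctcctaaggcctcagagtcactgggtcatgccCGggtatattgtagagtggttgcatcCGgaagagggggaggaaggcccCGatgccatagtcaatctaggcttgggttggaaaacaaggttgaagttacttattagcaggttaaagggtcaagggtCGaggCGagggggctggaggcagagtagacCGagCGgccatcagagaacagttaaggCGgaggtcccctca
Ms4a10: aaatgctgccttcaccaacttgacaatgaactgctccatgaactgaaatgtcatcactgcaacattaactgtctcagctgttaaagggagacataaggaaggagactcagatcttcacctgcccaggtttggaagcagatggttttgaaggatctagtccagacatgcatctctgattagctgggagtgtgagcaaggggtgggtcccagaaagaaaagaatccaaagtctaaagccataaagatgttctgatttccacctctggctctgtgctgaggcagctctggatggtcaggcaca
The Rpl39l window lies at chr16:10169978-10170277 on the plus strand and holds 17 CpG, an observed over expected ratio of 0.836. That of 1700013H16Rik lies at chrX:53757782-53758081 on the minus strand and holds 13, a ratio of 0.544. The Mgl2 window, at chr11:70130107-70130406 on the plus strand, holds 8 CpG with a ratio of 0.396, and the Apom window, at chr17:35131752-35132051 on the minus strand, holds 9 with a ratio of 0.42. Ms4a10, at chr19:10974651-10974950 on the minus strand, has no CpG in its window.

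The windows of these genes held fewer CpG sites than those of expressed genes in general. The median CpG observed over expected ratio was 0.438 for the 40 genes and 0.742 for all 10143, and the median G+C content was 54.8% and 60.0%. A ratio of at least 0.6, the range of CpG islands, was found for 14 of the 40 genes, or 35%, and for 68.2% of all. Between 0.2 and 0.6 lay 18 of the 40, or 45%, and 25.7% of all, and 8 of the 40 were under 0.2, or 20.0%, against 6.08% of all. Genes of low wild-type expression showed a gap as well. Among genes under 5 TPM in both wild types, the median ratio was 0.396 for 29 of the 63 genes and 0.658 for 4159 of all, and 9 of the 29, or 31.0%, against 56.3% reached 0.6. High-CpG windows belonged to genes such as Fank1 (1.00), Mettl25 (1.02) and BC049762 (1.03), and the windows without any CpG to Ms4a10 and 1700113B09Rik.

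The same windows were searched on both strands for 7 motifs, none of which contains another. TCCCGC, the core bound by E2F6, was in 7 windows, or 17.5%, against 38.4% of all, and CCGGAA, the ETS core, in 8, or 20.0%, against 31.3% of all. The E-box CACGTG was in 7.5% against 11.6% of all, the cyclic AMP response element TGACGTC in 5.0% against 6.29%, the NRF1 core GCATGCG in 5.0% against 7.47%, the ZFP57 core TGCCGC in 10.0% against 21.5% and TATAAA in 15.0% against 9.52%. Of these motifs, TATAAA, the core of the TATA box, was the one with the higher share among the 40 windows; it holds no CpG, while the other 6 hold at least 1 each. A match is a description of the letters and not of a bound site.

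**Figure D2:**
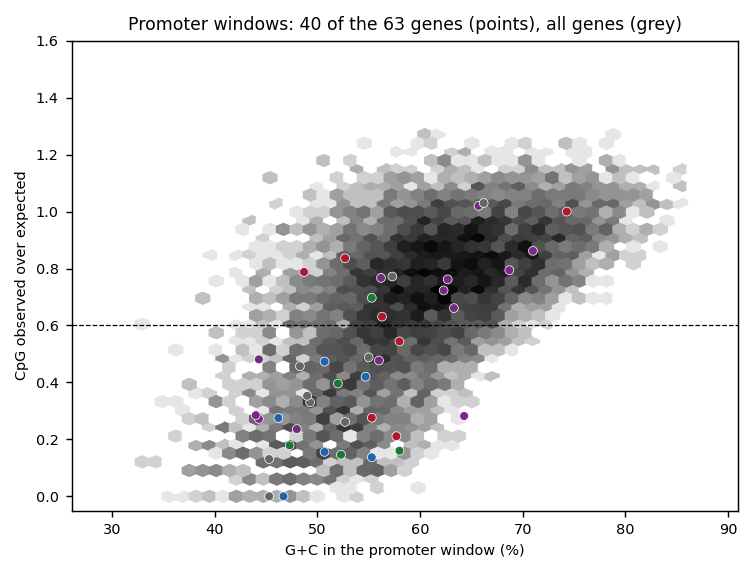
G+C content (horizontal axis, percent) and CpG observed over expected (vertical axis) of RefSeq promoter windows, with the 40 genes that have one as points coloured by role and all 10143 windows in grey shading. The dashed line marks 0.6, which 14 of the 40 points reach.

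The 9 germ cell genes included the most abundant member of the set. Rpl39l, the testis paralog of ribosomal protein gene Rpl39, was at 821 TPM in G9a/GLP DKO, 230.2 TPM in G9a CM, 866 TPM in Dnmt3a/3b DKO and 829 TPM in Dnmt1/3a/3b TKO cells, against 74.2 TPM in WT TT2 and 102 in WT J1. G9a CM cells were the lowest of the mutants. Ldhc, the lactate dehydrogenase subunit of sperm, was at 10.4 TPM in G9a/GLP DKO, 11.8 TPM in G9a CM, 7.63 TPM in Dnmt3a/3b DKO and 10.3 TPM in Dnmt1/3a/3b TKO cells, against 2.17 TPM in WT TT2 and 0.13 in WT J1. Nxf3, an X-linked member of the mRNA export factor family, was at 14.3 TPM in G9a/GLP DKO, 12.9 TPM in G9a CM, 8.3 TPM in Dnmt3a/3b DKO and 8.89 TPM in Dnmt1/3a/3b TKO cells, against 1.45 TPM in WT TT2 and 0.05 in WT J1. The rule places every mutant above both wild types for all of the genes. The Dnmt3a/3b DKO level was the lowest of the mutants for both Ldhc and Nxf3. Dnajc5g, a testis member of the cysteine string protein family, was at 8.58 TPM in G9a/GLP DKO, 13 TPM in G9a CM, 11.8 TPM in Dnmt3a/3b DKO and 12.5 TPM in Dnmt1/3a/3b TKO cells, against 1.62 TPM in WT TT2 and 0 in WT J1. Obox6, an oocyte homeobox gene, was at 15.4 TPM in G9a/GLP DKO, 11.97 TPM in G9a CM, 3.93 TPM in Dnmt3a/3b DKO and 12.5 TPM in Dnmt1/3a/3b TKO cells, against 1.3 TPM in WT TT2 and 1.29 in WT J1. The other germ cell genes, Fank1, Hus1b, Ccdc172 and 1700013H16Rik, were at 3.29 to 91.5 TPM in the mutants, against 0.05 to 3.15 TPM in the wild types. The 6 germ cell markers of the list set for cell types were at 1 TPM or more in every library, and their summed level was 404 to 1810 TPM in the mutants, against 859 TPM in WT TT2 and 191 TPM in WT J1. Dppa3 alone gave 299 to 1741 TPM of this sum in the mutants, against 794 TPM in WT TT2 and 5.71 TPM in WT J1.

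Under UNC0638, in libraries that had no part in choosing the genes, 7 of these 9 were called higher than in the vehicle control on day 2, 7 on day 4 and 7 on day 14, against 5.01%, 2.51% and 3.31% of all 14782 genes. The 3 comparisons share 1 vehicle control, so they are not independent of each other. Rpl39l was at 17.6 TPM in the vehicle control and 86.6, 87.3 and 72.4 TPM on days 2, 4 and 14 of UNC0638. These levels were 4.92-fold (95% interval 3.91 to 6.24), 4.95-fold (95% interval 3.94 to 6.29) and 4.11-fold (95% interval 3.24 to 5.24) higher than the vehicle control. Nxf3 was at 0.52 TPM in the vehicle control and 3.92, 6.15 and 7.97 TPM on days 2, 4 and 14 of UNC0638. The ratios to the vehicle control were 7.54-fold (95% interval 4.47 to 13.6), 11.8-fold (95% interval 7.11 to 21.2) and 15.3-fold (95% interval 9.22 to 27.4). Both genes were above their vehicle control level in all 3 treated libraries. Ldhc was at 1.78 TPM in the vehicle control and 6.63, 6.48 and 5.82 TPM on days 2, 4 and 14 of UNC0638, and the day 14 level was 3.27-fold (95% interval 1.99 to 5.56) higher than the vehicle control. Dnajc5g was at 1.48 TPM in the vehicle control and 4.67, 5.76 and 6.13 TPM on days 2, 4 and 14 of UNC0638, with a day 14 level 4.14-fold (95% interval 2.51 to 7.17) higher. 1700013H16Rik was at 0.45 TPM in the vehicle control and 6.27, 3.52 and 15.2 TPM on days 2, 4 and 14 of UNC0638, with a day 14 level 33.7-fold (95% interval 14 to 104) higher than 5 counts in the vehicle control. The 2 that were not called were Fank1, a testis ankyrin-repeat gene at 1.3 TPM in the vehicle control and 2.2, 2.14 and 1.84 TPM on days 2, 4 and 14 of UNC0638, and Hus1b. Hus1b, a paralog of the checkpoint clamp gene Hus1, was at 1.7 TPM in the vehicle control and 2.82, 2.65 and 3.07 TPM on days 2, 4 and 14 of UNC0638. The summed germ cell markers were at 354 TPM in the vehicle control and 350, 335 and 334 TPM on days 2, 4 and 14. Of this sum Dppa3 made up 317 TPM in the vehicle control and 308, 299 and 281 TPM on those days. Single markers moved apart from the sum. Dazl was at 3.02 TPM in the vehicle control and 7.33, 5.89 and 10.99 TPM on days 2, 4 and 14, and Prdm1 at 1.47 TPM in the vehicle control and 4.28, 3.31 and 4.26 TPM. The rest did not rise on each day. Nanos3 was at 11.79 TPM in the vehicle control and 5.5, 8.83 and 17.21 TPM on those days. Sycp3 was at 6.43 TPM and then 9.69, 4.27 and 5.87 TPM, and Ddx4 at 13.67 TPM and then 15.11, 12.99 and 14.82 TPM. Their part in the result was not tested. With TMM-scaled CPM, counts scaled to library totals corrected for composition, 5, 6 and 7 of the 9 germ cell genes were called higher.

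**Figure D3:**
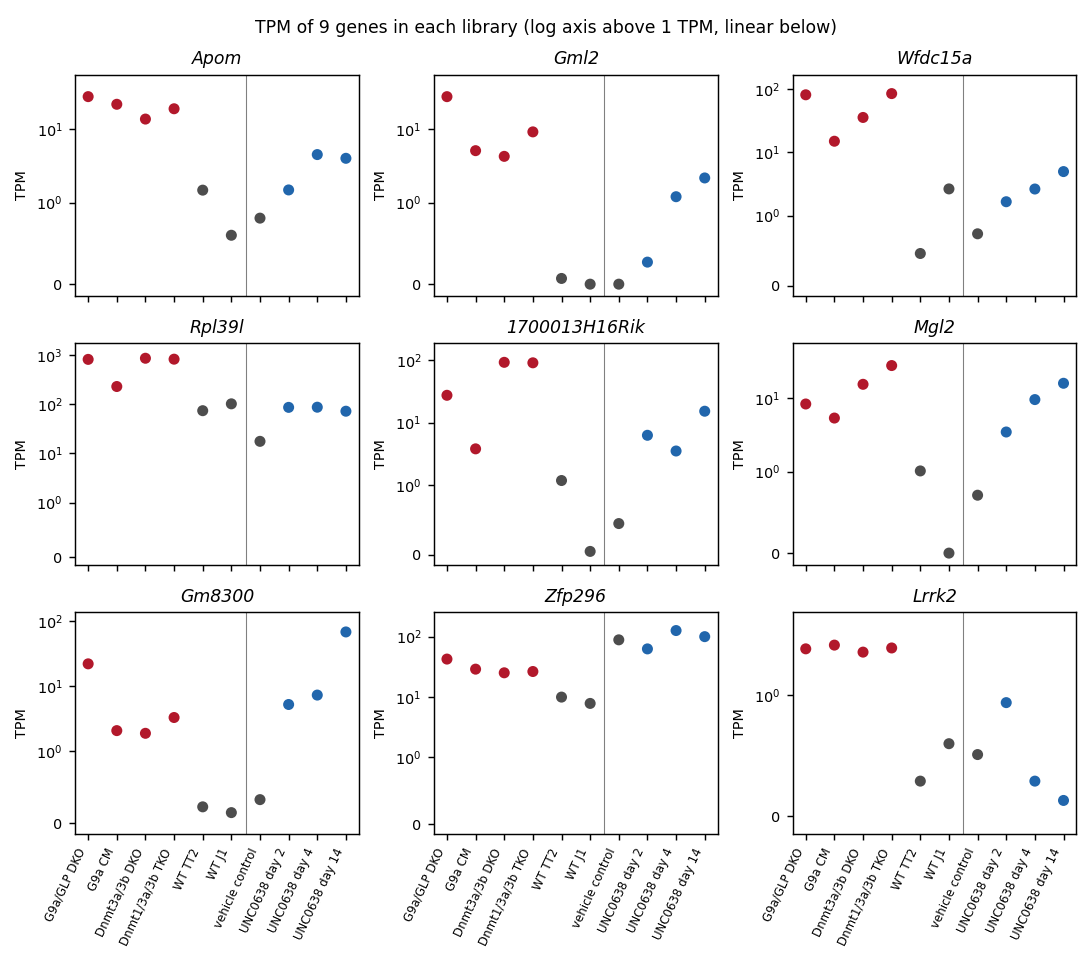
TPM (vertical axis, logarithmic above 1 TPM and linear below) of 9 of the genes in each library (horizontal axis), with mutants in red, wild types and vehicle control in grey and UNC0638 libraries in blue. Apom, Rpl39l, 1700013H16Rik and Mgl2 show the treated points above the vehicle control on day 14, Gm8300 climbs to 68.7 TPM on day 14, Lrrk2 stays under 1 TPM throughout the inhibitor series, and Zfp296 is higher in the vehicle control, at 88.4 TPM, than in any mutant.

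The 9 secreted and surface genes were at or under 2.63 TPM in both wild types. Apom, the apolipoprotein carried on high-density lipoprotein, was at 27.9 TPM in G9a/GLP DKO, 21.9 TPM in G9a CM, 13.8 TPM in Dnmt3a/3b DKO and 19.03 TPM in Dnmt1/3a/3b TKO cells, against 1.48 TPM in WT TT2 and 0.60 in WT J1. Wfdc15a, a WAP four-disulfide core protein gene, was at 80.6 TPM in G9a/GLP DKO, 14.9 TPM in G9a CM, 35.4 TPM in Dnmt3a/3b DKO and 84.2 TPM in Dnmt1/3a/3b TKO cells, against 0.46 TPM in WT TT2 and 2.63 in WT J1. Gml2, a paralog of the Ly6-family gene Gml, was at 27.6 TPM in G9a/GLP DKO, 5.08 TPM in G9a CM, 4.25 TPM in Dnmt3a/3b DKO and 9.15 TPM in Dnmt1/3a/3b TKO cells, against 0.07 TPM in WT TT2 and 0 in WT J1. The G9a/GLP DKO and Dnmt1/3a/3b TKO libraries held the highest levels of Wfdc15a and Gml2. Gml itself (GRCm38.p6 chr15:74813434-74820049) overlaps Gml2 (chr15:74818941-74846148) and was at 14.8 TPM in G9a/GLP DKO, 2.39 TPM in G9a CM, 1.68 TPM in Dnmt3a/3b DKO and 2.46 TPM in Dnmt1/3a/3b TKO cells, against 0 TPM in WT TT2 and 0 in WT J1. The counts of both were whole in all 10 libraries, and the counting program gave them a posterior SD of 0 in the mutants. Spink10, a Kazal-type protease inhibitor gene, was at 12.5 TPM in G9a/GLP DKO, 14.8 TPM in G9a CM, 6.01 TPM in Dnmt3a/3b DKO and 5.14 TPM in Dnmt1/3a/3b TKO cells, against 0.04 TPM in WT TT2 and 0.66 in WT J1. Sbsn, suprabasin of stratified epidermis, was at 12.1 TPM in G9a/GLP DKO, 2.83 TPM in G9a CM, 4.23 TPM in Dnmt3a/3b DKO and 4.21 TPM in Dnmt1/3a/3b TKO cells, against 0 TPM in WT TT2 and 0.05 in WT J1. Ms4a10, a membrane protein gene of the MS4A family and the one with no CpG in its promoter window, was at 16.5 TPM in G9a/GLP DKO, 9.36 TPM in G9a CM, 5.17 TPM in Dnmt3a/3b DKO and 6.97 TPM in Dnmt1/3a/3b TKO cells, against 0.73 TPM in WT TT2 and 0.45 in WT J1. Plac1, an X-linked gene known from placenta, was at 6.94 TPM in G9a/GLP DKO, 3.03 TPM in G9a CM, 10.1 TPM in Dnmt3a/3b DKO and 15.2 TPM in Dnmt1/3a/3b TKO cells, against 0.75 TPM in WT TT2 and 0.06 in WT J1. The 10 trophoblast markers summed to 44.0 to 55.9 TPM in the mutants, against 26.1 TPM in WT TT2 and 12 TPM in WT J1. Most of the 48.0 TPM in G9a/GLP DKO cells came from Krt18 (11.59 TPM), Tfap2c (11.45), Krt8 (10.42) and Krt19 (9.02). Gata3 was at 0.41 to 2.73 TPM in the mutants, against 0.28 TPM in WT TT2 and 0.02 TPM in WT J1. In the mutants and both wild types, Cdx2 was at 0 TPM and Eomes, Elf5 and Hand1 were at or under 0.65 TPM. The part of these markers in the level of Plac1 was not tested.

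Under UNC0638, 1 of the 9 was called higher than in the vehicle control on day 2, 4 on day 4 and 4 on day 14, against 5.01%, 2.51% and 3.31% of all genes. With TMM-scaled CPM they were 0, 1 and 1, and Apom was the gene called on days 4 and 14. Apom was at 0.81 TPM in the vehicle control and 1.49, 4.52 and 4.02 TPM on days 2, 4 and 14 of UNC0638, or 1.84-fold (95% interval 0.703 to 5.31), 5.58-fold (95% interval 2.5 to 14.6) and 4.96-fold (95% interval 2.17 to 13.2) the vehicle level. The day 2 interval includes 1, and those of days 4 and 14 do not. Gml2 had no counts in the vehicle control and 0.27, 1.20 and 2.16 TPM on days 2, 4 and 14 of UNC0638, the last being at least 3.8-fold higher than a floor of 3 counts. Wfdc15a was at 0.74 TPM in the vehicle control and 1.65, 2.62 and 4.94 TPM on days 2, 4 and 14 of UNC0638, with a day 14 level 6.68-fold (95% interval 1.51 to 61) higher than 2 counts in the vehicle control. These treated levels stayed under those of the 4 mutants for Apom, Gml2 and Wfdc15a alike. Ms4a10 had no counts in the vehicle control and was at 0.30, 0.10 and 0.28 TPM on days 2, 4 and 14, and Sbsn was at 0.26 TPM in the vehicle control and 0.11, 0.23 and 0.22 TPM on days 2, 4 and 14 of UNC0638. Neither was called on any day, and both stayed under 0.5 TPM throughout the inhibitor series. Plac1 was at 0.22 TPM in the vehicle control and 0.38, 0.55 and 0.54 TPM on days 2, 4 and 14 of UNC0638.

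The 6 immune and blood genes are known from thymus, macrophages and other leukocytes. Mgl2, a galactose-type lectin of macrophages, was at 8.33 TPM in G9a/GLP DKO, 5.36 TPM in G9a CM, 15.5 TPM in Dnmt3a/3b DKO and 27.8 TPM in Dnmt1/3a/3b TKO cells, against 1.02 TPM in WT TT2 and 0 in WT J1. It was higher in the Dnmt lines than in the G9a lines. Aire, the autoimmune regulator that drives expression of tissue genes in thymic epithelium, was at 27.96 TPM in G9a/GLP DKO, 47.04 TPM in G9a CM, 19 TPM in Dnmt3a/3b DKO and 29.9 TPM in Dnmt1/3a/3b TKO cells, against 4.53 TPM in WT TT2 and 0.45 in WT J1. Its RefSeq span overlaps Dnmt3l, which was at 141 TPM in G9a/GLP DKO cells, 253 TPM in G9a CM cells, 155 TPM in Dnmt3a/3b DKO cells and 192 TPM in Dnmt1/3a/3b TKO cells, against 51.7 TPM in WT TT2 and 19.5 TPM in WT J1. The counts of Aire were whole in all 10 libraries, with a posterior SD of 0 in the mutants. The use of strand in counting is not stated. Lgals9, galectin-9, was at 26.4 TPM in G9a/GLP DKO, 47.6 TPM in G9a CM, 17.9 TPM in Dnmt3a/3b DKO and 13.4 TPM in Dnmt1/3a/3b TKO cells, against 5.26 TPM in WT TT2 and 2.53 in WT J1. Anxa1, annexin A1, was at 10.9 TPM in G9a/GLP DKO, 6.95 TPM in G9a CM, 11.9 TPM in Dnmt3a/3b DKO and 20.8 TPM in Dnmt1/3a/3b TKO cells, against 0.97 TPM in WT TT2 and 1.35 in WT J1. Nckap1l, the haematopoietic subunit of the actin-regulating WAVE complex, and Fermt3, an integrin activator of blood cells, were at 1.54 to 4.33 TPM in the mutants, against 0 to 0.41 TPM in the wild types. Of 8 leukocyte markers, a list chosen after the values were seen, 1 to 3 were at 1 TPM or more in each mutant, against 1 in WT TT2 and 1 in WT J1. Their sum was 9.08 to 30.7 TPM in the mutants, against 6.73 TPM in WT TT2 and 28.9 TPM in WT J1, of which Cd68 was at 21.31 TPM in Dnmt3a/3b DKO cells and 29.18 TPM in Dnmt1/3a/3b TKO cells, against 27.43 TPM in WT J1. The T cell gene Cd3e was at 4.59 TPM in G9a/GLP DKO cells and 1.41 TPM in G9a CM cells, against 0.32 TPM in WT TT2, and at 0.54 TPM in Dnmt3a/3b DKO cells and 0.38 TPM in Dnmt1/3a/3b TKO cells, against 0.38 TPM in WT J1. The defining pan-leukocyte gene Ptprc was at or under 0.02 TPM in all 10 libraries and the macrophage gene Adgre1 at or under 0.03 TPM.

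On UNC0638, 3 of the 6 were called higher on day 2, 2 on day 4 and 2 on day 14, against 5.01%, 2.51% and 3.31% of all genes. Mgl2 was at 0.71 TPM in the vehicle control and 3.46, 9.57 and 15.96 TPM on days 2, 4 and 14 of UNC0638. These levels were 4.87-fold (95% interval 2.55 to 10.3), 13.5-fold (95% interval 7.36 to 27.5) and 22.5-fold (95% interval 12.4 to 45.6) the vehicle level. By day 14 its TPM lay within the range of the 4 mutants. Nckap1l was at 0.46 TPM in the vehicle control and 3.69, 3.81 and 4.99 TPM on days 2, 4 and 14 of UNC0638, with a day 14 level 10.8-fold (95% interval 7.14 to 17.6) higher. Aire was at 9.34 TPM in the vehicle control and 25.8, 17.3 and 8.83 TPM on days 2, 4 and 14 of UNC0638. Its ratio to the vehicle control was 2.76-fold (95% interval 2.22 to 3.46), 1.85-fold (95% interval 1.46 to 2.37) and 0.945-fold (95% interval 0.719 to 1.24). It was thus called on day 2 alone. Dnmt3l, with which it overlaps, was at 137 TPM in the vehicle control and 171, 193 and 104 TPM on days 2, 4 and 14. The leukocyte marker sum was 10.5 TPM in the vehicle control and 12.1, 12.7 and 11 TPM on days 2, 4 and 14. Within it, Cd3e was at 1.56 TPM in the vehicle control and 3.08, 6.07 and 4.98 TPM on those days. Spi1, a transcription factor of myeloid cells, was at 0.55 TPM in the vehicle control and 2.43, 1.21 and 1.54 TPM. Cd3e and Spi1 were thus higher on each day, while Cd68 was lower, at 7.72 TPM in the vehicle control and 5.88, 4.96 and 4.16 TPM, and their part in the result was not tested. Anxa1 was at 1.74 TPM in the vehicle control and 0.95, 0.57 and 1.77 TPM on days 2, 4 and 14 of UNC0638, and was not called on any day. Its level lay under that of each mutant in all 4 libraries of the inhibitor series.

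Among the 16 other named genes, Zfp981, a KRAB zinc finger gene of a near-identical family, was the most abundant, at 59.5 TPM in G9a/GLP DKO, 40.2 TPM in G9a CM, 100.0 TPM in Dnmt3a/3b DKO and 99.4 TPM in Dnmt1/3a/3b TKO cells, against 15.96 TPM in WT TT2 and 6.84 in WT J1. Smtnl1, a smoothelin-like muscle gene, was at 48.8 TPM in G9a/GLP DKO, 32.9 TPM in G9a CM, 19.8 TPM in Dnmt3a/3b DKO and 19.6 TPM in Dnmt1/3a/3b TKO cells, against 9.21 TPM in WT TT2 and 0.38 in WT J1. Efhc2, an X-linked gene for an EF-hand protein of cilia, was at 51.04 TPM in G9a/GLP DKO, 3.97 TPM in G9a CM, 33.7 TPM in Dnmt3a/3b DKO and 11.6 TPM in Dnmt1/3a/3b TKO cells, against 0.27 TPM in WT TT2 and 0.65 in WT J1. The G9a CM level of Efhc2 was the lowest of the mutants. Gadd45g, a growth arrest and DNA damage gene, was at 23.3 TPM in G9a/GLP DKO, 76.4 TPM in G9a CM, 7.7 TPM in Dnmt3a/3b DKO and 7.25 TPM in Dnmt1/3a/3b TKO cells, against 1.81 TPM in WT TT2 and 0 in WT J1. Otulin, the deubiquitinase of linear ubiquitin chains, was at 23.04 TPM in G9a/GLP DKO, 19.9 TPM in G9a CM, 20.9 TPM in Dnmt3a/3b DKO and 18.5 TPM in Dnmt1/3a/3b TKO cells, against 7.65 TPM in WT TT2 and 8.5 in WT J1. The 4 mutants were nearly level for Otulin, while Gadd45g was highest in G9a CM. Of these 16 genes, 2, 1 and 2 were called higher under UNC0638 on days 2, 4 and 14, against 5.01%, 2.51% and 3.31% of all genes. They were Hist1h2bk and Wdr95 on day 2, Plekhg1 on day 4, and Hist1h2bk and Smtnl1 on day 14. Hist1h2bk was at 0.78 TPM in the vehicle control, from 2 counts, and at 5.22, 2.42 and 3.61 TPM on days 2, 4 and 14. Untreated WT TT2 and WT J1 held 5.0 and 3.6 TPM of it. Its day 14 interval, 0.961 to 44.2, includes 1. Wdr95 had 1 count in the vehicle control. With TMM-scaled CPM 0, 2 and 1 of the 16 genes were higher, and 2, 0 and 0 lower. Smtnl1 was at 4.86 TPM in the vehicle control and 9.66, 10.5 and 14.96 TPM on days 2, 4 and 14 of UNC0638, with a day 14 level 3.08-fold (95% interval 2.4 to 3.98) higher. Efhc2 was at 0.38 TPM in the vehicle control and 0.49, 0.34 and 0.98 TPM on days 2, 4 and 14. Its day 14 level was 2.58-fold (95% interval 1.19 to 5.88) the vehicle level, an interval above 1, but it was not called by size. Otulin was at 2.64 TPM in the vehicle control and 2.66, 3.97 and 3.05 TPM on those days.

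The 23 genes without a standard name, or noncoding, held the largest smallest ratio of the set. Gm12690 was at 42.7 TPM in G9a/GLP DKO, 40.02 TPM in G9a CM, 39.7 TPM in Dnmt3a/3b DKO and 27.99 TPM in Dnmt1/3a/3b TKO cells, against 2.08 TPM in WT TT2 and 0.59 in WT J1. Its lowest mutant was 9.41 times its higher wild type on the (TPM + 1) scale. AI662270 was at 161 TPM in G9a/GLP DKO, 29.6 TPM in G9a CM, 15.9 TPM in Dnmt3a/3b DKO and 19.9 TPM in Dnmt1/3a/3b TKO cells, against 3.95 TPM in WT TT2 and 0.20 in WT J1. Gm40977 was at 151 TPM in G9a/GLP DKO, 66.3 TPM in G9a CM, 61.5 TPM in Dnmt3a/3b DKO and 74.2 TPM in Dnmt1/3a/3b TKO cells, against 10.6 TPM in WT TT2 and 6.97 in WT J1. All 3 had mutant levels of at least 15 TPM, and AI662270 was highest by far in G9a/GLP DKO cells. Gm8300 and Gm5039, eIF1A-like genes known from the 2-cell embryo, lie 802 kb apart on chromosome 12. Gm8300 was at 22.2 TPM in G9a/GLP DKO, 2.08 TPM in G9a CM, 1.89 TPM in Dnmt3a/3b DKO and 3.31 TPM in Dnmt1/3a/3b TKO cells, against 0.23 TPM in WT TT2 and 0.15 in WT J1. Gm5039 was at 32.5 TPM in G9a/GLP DKO, 3.1 TPM in G9a CM, 2.36 TPM in Dnmt3a/3b DKO and 2.71 TPM in Dnmt1/3a/3b TKO cells, against 0.25 TPM in WT TT2 and 0.03 in WT J1. The G9a/GLP DKO library stood above the other mutants for both. Eprn, a noncoding transcript, was at 127 TPM in G9a/GLP DKO, 116 TPM in G9a CM, 139 TPM in Dnmt3a/3b DKO and 246 TPM in Dnmt1/3a/3b TKO cells, against 56.5 TPM in WT TT2 and 24.7 in WT J1. Rny3, a Y RNA gene, had 34.4 to 79.6 TPM in the mutants, against 9.27 TPM in WT TT2 and 15.3 TPM in WT J1, but these values rest on 1 to 4 counts in the mutants and 2 and 1 in the wild types. Rny3, Rpl35a-ps7 and Spint5 were the only 3 of the 63 with under 10 counts in a mutant. No member had a posterior SD above 10% of its count in a mutant, which is how the counting program expresses doubt over shared reads.

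Under UNC0638, 10, 12 and 12 of these 23 were called higher on days 2, 4 and 14, against 5.01%, 2.51% and 3.31% of all genes. With TMM-scaled CPM 6, 8 and 6 were, and 1 was lower on day 2. Gm8300 was at 0.33 TPM in the vehicle control and 5.25, 7.33 and 68.7 TPM on days 2, 4 and 14 of UNC0638, and the day 14 level was 208-fold (95% interval 96.2 to 573) higher than 6 counts in the vehicle control. Gm5039 was at 0.47 TPM in the vehicle control and 5.65, 7.5 and 67.2 TPM on days 2, 4 and 14 of UNC0638, the day 14 level being 143-fold (95% interval 25.7 to 5670.0) higher than 1 count. While 1 count gave 0.47 TPM in the vehicle control, 105 counts gave 5.65 TPM on day 2 and 1291 gave 67.2 TPM on day 14. The length scaling of this gene thus differed between libraries and enters its ratio, which the interval does not cover. The counts of Gm8300 and Gm5039 were whole in all 10 libraries, with a posterior SD of 0 in the mutants. Between day 4 and day 14 they showed the largest gains of the set, 9.38-fold (95% interval 7.97 to 11.1) for Gm8300 and 8.96-fold (95% interval 7.62 to 10.6) for Gm5039. Both exceeded every mutant on day 14. AI662270 was at 2.17 TPM in the vehicle control and 13.3, 24.4 and 34.7 TPM on days 2, 4 and 14 of UNC0638. Its ratios were 6.13-fold (95% interval 4.13 to 9.4), 11.2-fold (95% interval 7.72 to 17) and 16-fold (95% interval 11 to 24.1). Gm40977 was at 4.18 TPM in the vehicle control and 13.7, 20.1 and 26.4 TPM on days 2, 4 and 14 of UNC0638, with a day 14 ratio of 6.32-fold (95% interval 4.25 to 9.73). Gm12690 had no counts in the vehicle control and was at 3.54, 2.88 and 11.7 TPM on days 2, 4 and 14, the last from 14 counts and at least 5.17-fold higher than a floor of 3 counts. Rny3 had no counts in any library of the inhibitor series.

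Over the whole set, 23 of 63 genes (36.5%) were called higher on day 2 of UNC0638, 26 (41.3%) on day 4 and 27 (42.9%) on day 14, and none was called lower on any day. Among all 14782 genes, 5.01% were called higher on day 2, 2.51% on day 4 and 3.31% on day 14, and 1.47%, 1.02% and 1.09% were called lower. The median log2(TPM + 1) difference of the 63 was 0.50, 0.94 and 0.59 on days 2, 4 and 14, and that of all genes 0.18, 0.00 and 0.06. TMM-scaled CPM gave fewer calls. On that scale 14, 19 and 17 of the 63 were higher on days 2, 4 and 14, against 2.06%, 1.53% and 1.79% of all genes, and 3, 1 and 0 were lower. The all-gene median on that scale was 0.00, 0.01 and -0.02. The cause of the fewer calls was not tested. With the 8 genes at 10 TPM or more in the vehicle control left out, 22, 25 and 26 of 55 were higher, against 7.41%, 4.13% and 5.44% of all genes under that level. With genes of at least 10 counts in either library, 19 of 44, 21 of 46 and 24 of 48 were higher, against 5.08%, 2.17% and 3.12%. Both of these limits were chosen after seeing the data.

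A gene under 1 TPM in the vehicle control cannot be called lower on the (TPM + 1) scale. This held for 38 of the 63, so for them the absence of lower calls was fixed in advance. No counts in the vehicle control were found for 9 of the 63, against 5, 4 and 2 on days 2, 4 and 14. The median level of the set was 0.77 TPM in the vehicle control and 2.63, 2.84 and 3.61 TPM on days 2, 4 and 14, under the median of each mutant. Between day 2 and day 4, Apom, Mgl2, Eprn, Gm3880 and Spint5 were called higher on day 4 and Gadd45g lower, against 1.6% and 4.26% of all genes. From day 4 on, Gm8300, Gm5039, 1700013H16Rik, Gm12690, Gm5 and 1700019E08Rik were called higher on day 14 and Gm3880 lower, against 1.96% and 1.03%.

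**Figure D4:**
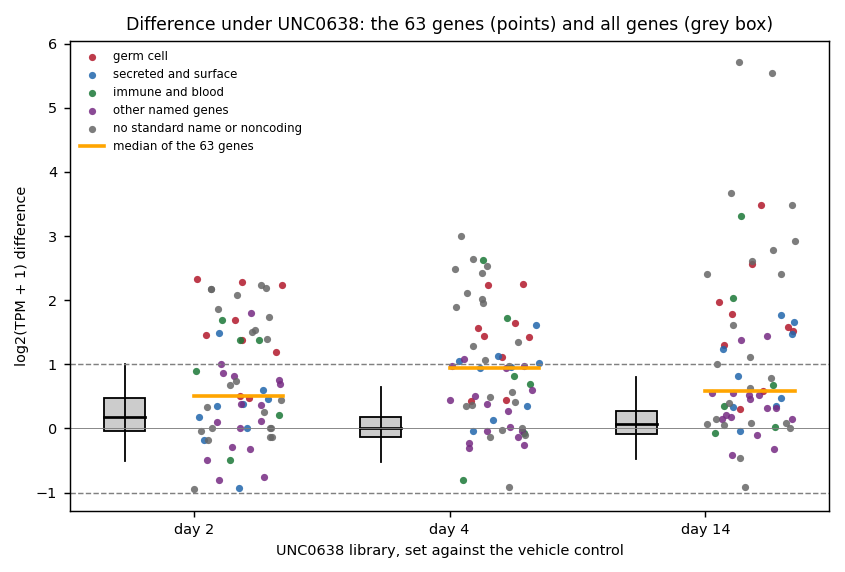
Log2(TPM + 1) difference of each UNC0638 library from the vehicle control (vertical axis) by day (horizontal axis), with the 63 genes as points coloured by role and an orange line at their median. The grey box spans the middle of the 14782 genes (quartiles, whiskers from the 5th to the 95th percentile), the dashed lines mark differences of 1 and -1, and 23, 26 and 27 points lie at or above the upper line while none lies at or below the lower one.

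The vehicle control is another wild-type library, which was not used to choose the genes. At least 2 times its level, on the (TPM + 1) scale, was reached in all 4 mutants by 51 of the 63 genes, against 8.22% of all. The mutant values in this count are those that chose the genes, so nothing is read from the share. The 12 that did not reach it were Aire, Gadd45g, Fank1, Zfp296, Spint5, Nckap1l, Lgals9, Plk3, Mettl25, Mospd3, 2410002F23Rik and Nexmif. Zfp296, a zinc finger gene of pluripotent cells, was at 42.4 TPM in G9a/GLP DKO, 28.9 TPM in G9a CM, 25.1 TPM in Dnmt3a/3b DKO and 26.4 TPM in Dnmt1/3a/3b TKO cells, against 9.93 TPM in WT TT2 and 7.8 in WT J1. The vehicle control held 88.4 TPM. Plk3, a polo-like kinase gene of the stress response, was at 9.35 TPM in G9a/GLP DKO, 6.79 TPM in G9a CM, 5.38 TPM in Dnmt3a/3b DKO and 5.19 TPM in Dnmt1/3a/3b TKO cells, against 1.83 TPM in WT TT2 and 1.39 in WT J1. Its vehicle control level was 29.4 TPM. Mospd3 and 2410002F23Rik were likewise lower in all 4 mutants, at 9.83 to 19.5 TPM, than in the vehicle control, at 49.9 and 64.2 TPM. For these 4 genes the wild-type libraries thus lay on both sides of the mutants.

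The vehicle control stood apart from the other wild types in general. It was called higher than WT TT2 for 22.6% of all genes and lower for 15.6%, and higher than WT J1 for 32.5% and lower for 17.6%, while WT J1 was higher than WT TT2 for 7.37% and lower for 16.6%. Pou5f1, the pluripotency factor Oct4, was at 557 TPM in the vehicle control, against 11.9 TPM in WT TT2 and 7.61 TPM in WT J1. Its level was 11.24 to 33.12 TPM in the mutants and 435 to 462 TPM in the UNC0638 libraries. Among the 63 genes, 4 were higher and 10 lower in the vehicle control than in WT TT2, and 13 were higher and 5 lower than in WT J1. The 4 higher than WT TT2 were Zfp296, Plk3, Mospd3 and 2410002F23Rik. Rpl39l was 4.21 times lower in the vehicle control than in WT TT2, and its treated levels of 72.4 to 87.3 TPM under UNC0638 were close to the untreated WT TT2 level of 74.2 TPM. Any level of the inhibitor series set beside a mutant level carries this gap.

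**Figure D5:**
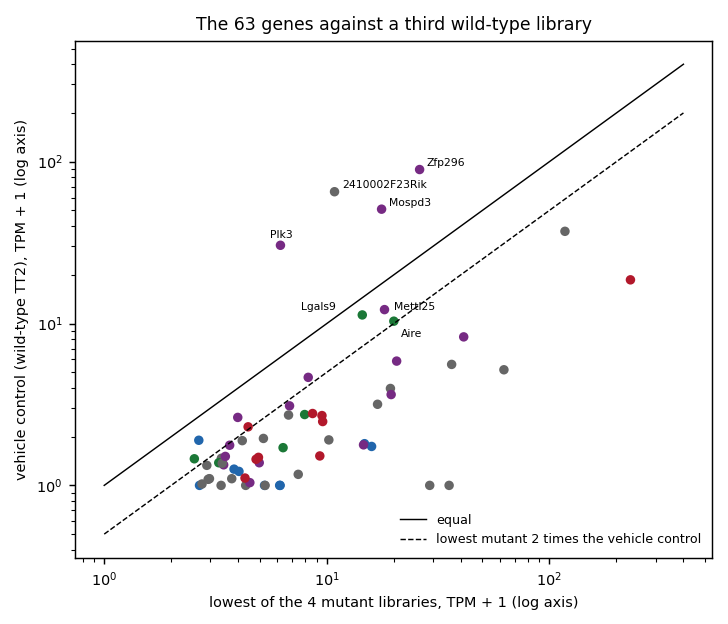
Vehicle control level (vertical axis, TPM + 1) against the lowest of the 4 mutant levels (horizontal axis, TPM + 1) for the 63 genes, both on log axes, with points coloured by role as in the heat map. Points below the dashed line, 51 of 63, have a lowest mutant at least 2 times the vehicle control, and Zfp296, Plk3, Mospd3 and 2410002F23Rik lie above the line of equal level.

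The 2 lines of each pathway are set side by side here as a description. In the library labelled G9a/GLP DKO, 14 of the 63 were called higher than in G9a CM and 2 lower, against 7.31% and 3.45% of all genes, with a median log2(TPM + 1) difference of 0.33 against 0.05 for all. Efhc2 showed the largest gap, 12.9-fold (95% interval 10.8 to 15.3), followed on the log2 scale by Gm5039, Gm8300 and 1700013H16Rik. Gadd45g and 4930591A17Rik went the other way, Gadd45g with a ratio of 0.305 (95% interval 0.263 to 0.352) and 4930591A17Rik with 20.7 TPM in the library labelled G9a/GLP DKO, against 48.4 TPM in G9a CM. Between Dnmt1/3a/3b TKO and Dnmt3a/3b DKO cells, 5 of the 63 were higher and 1 lower, against 2.85% and 1.59% of all genes, with a median of 0.27 against -0.01. The 5 were Wfdc15a, Gm5, Obox6, Gm3880 and 1700113B09Rik, and Efhc2 was lower, with a ratio of 0.345 (95% interval 0.311 to 0.382). The mutant values of these comparisons are among those that chose the genes, and each rests on 1 clone a side. No direction is read from these counts.

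The genes were spread over most chromosomes. The X chromosome held 8 of the 63 genes, or 12.7%, against 3.82% of all, and chromosome 7 held 7, or 11.1%, against 7.28%. The genes left out by name are missing from the 63 but not from all genes, so these shares depend in part on that choice. None lay on chromosomes 1, 3, 8, 9 or 14. The X-linked genes were Nxf3, 1700013H16Rik, Plac1, Efhc2, Nexmif, Gm9, 3830417A13Rik and 1700080O16Rik. Within 1000 kb of each other lay 6 pairs, namely Gm8300 with Gm5039, Gml with Gml2, Wfdc15a with Spint5 (515 kb), Wdr95 with Gm5 (888 kb), Rny3 with Rpl35a-ps7 (33.5 kb) and Plac1 with 1700013H16Rik (503 kb). Another RefSeq gene overlapped 23 of the 57 genes that have a position. Several such partners were well expressed in every library. Bex4, which overlaps Nxf3, was at 210 to 386 TPM in the mutants, against 240 TPM in WT TT2 and 176 TPM in WT J1. Clk4, which overlaps BC049762, was at 56.6 to 67.8 TPM in the mutants, against 68.7 TPM in WT TT2 and 62.0 TPM in WT J1. Dhx32, the partner of Fank1, was at 17.4 to 20.1 TPM in the mutants, against 18.9 TPM in WT TT2 and 15.2 TPM in WT J1. The levels of Clk4 and Dhx32 were thus nearly even across these libraries where those of BC049762 and Fank1 were not.

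Lists of known function were set beside the 63 genes. None of the 32 genes left out by name is in any of these lists, so the number of genes that a list shares with the set is in part fixed by the choice of both, and nothing is read from it. Of 50 measured germ line genes known for promoter methylation or meiosis, 1700013H16Rik was in the set, and other germ cell genes of the set, such as Rpl39l and Ldhc, are not on that list. In it 11 were higher and 5 lower in G9a/GLP DKO than in WT TT2, 10 and 3 in G9a CM, 19 and 3 in Dnmt3a/3b DKO cells against WT J1, and 17 and 4 in Dnmt1/3a/3b TKO cells. The corresponding shares of all genes were 11.7% and 5.82%, 6.69% and 4.32%, 13.6% and 5.31%, and 15.2% and 5.64%. Under UNC0638, 17, 11 and 15 of the 50 were higher on days 2, 4 and 14, against 5.01%, 2.51% and 3.31% of all genes. None was lower, against 1.47%, 1.02% and 1.09% of all genes. The median log2(TPM + 1) differences of the 50 were 0.80, 0.21 and 0.37, against 0.18, 0.00 and 0.06 for all genes. The list of 28 genes of the 2-cell stage does not hold Gm8300, Gm5039 or the Zscan4 genes and shares none with the set. Of the 28, 19 were higher in G9a/GLP DKO, 3 in G9a CM, 5 in Dnmt3a/3b DKO cells and 8 in Dnmt1/3a/3b TKO cells than in their own wild type, against 11.7%, 6.69%, 13.6% and 15.2% of all genes. A listed gene was measured only with at least 1 TPM in at least 1 of the 6 libraries of the rule. Some of the 28, such as Usp17lb, Tcstv3 and Zfp352, passed through G9a/GLP DKO alone. Some of the 50 germ line genes, such as Tuba3b and Usp26, passed through mutants alone. The mutant counts of both lists are therefore in part fixed by this filter, and nothing is read from them. On UNC0638, 6, 6 and 14 of these 28 were higher on days 2, 4 and 14, against 5.01%, 2.51% and 3.31% of all genes, with medians of 0.50, 0.27 and 0.94. For the next 2 lists, the shares of all genes were 5.01%, 2.51% and 3.31% higher and 1.47%, 1.02% and 1.09% lower on days 2, 4 and 14. Gadd45g stood in a list of 18 stress and growth arrest genes, of which 7 were higher and 1 lower on day 2, none higher and 5 lower on day 4, and none higher and 2 lower on day 14, with medians of 0.75, -0.36 and -0.02. Anxa1 stood in a list of 25 cytoskeleton, adhesion and matrix genes, of which 0, 1 and 2 were higher and 4, 4 and 2 lower on those days, with medians of 0.03, -0.17 and -0.08. The lists for imprinted genes, interferon response, naive and primed pluripotency, and DNA and H3K9 methylation held none of the 63. These lists held 42, 28, 23, 11, 15 and 20 measured genes, in that order. In each of them no more than 3 genes were called higher, and no more than 3 lower, on any day of UNC0638. The most called higher were 3 of 28 interferon genes on day 14, against 3.31% of all genes. The most called lower were 3 of 23 naive pluripotency genes on day 2, against 1.47% of all genes.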

How the data were processed

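RNA was sequenced in 10 libraries, 1 per group; the other 120 of the 130 samples of the series were not analysed here. Per the submitters' processing notes, STAR 2.5.3a and RSEM were used with GRCm38 (mm10). The authors deposited expected counts, with reads that match several genes divided among them by RSEM (4.26% to 6.17% of values were not whole), a posterior SD of each count (a score of doubt, per the file headers), and TPM, scaled for effective length and library total per the file headers. Symbols were found for 99.7% of genes, and RefSeq GRCm38.p6 gave positions for 71.8%.

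From these values, (TPM + 1) ratios were computed with Python 3.11.15. A call needed a ratio of at least 2 or at most 0.5. Folds against a library without counts were taken against its floor of 3 counts. Intervals are exact Clopper-Pearson 95% intervals of the count ratio, scaled to TPM; the reads carry no molecular identifiers, so these intervals cover counting error only. All genes means those at 1 TPM or more in at least 1 of the 6 libraries of the rule. TMM factors came from edgeR 4.0.16, on expected counts rounded to whole numbers. Scripts were tested on simulated data. With 1 library per group no test between conditions was possible. Genes named are the 12 of standard symbol with the largest smallest ratio, the 8 most abundant, the extremes of each comparison, list members and those at the threshold; Ldhc, Nckap1l, Plac1, Gml, Plk3 and members given by count were chosen after their values were seen. Of the 63 genes, 1 is counted but not reported here by itself. The members, the lists and the tests were chosen with earlier results of these data known.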

Additional observations from a re-analysis of the deposited data

How the results depend on the processing

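No paired analysis was possible because each group is 1 library. The number of genes that met the rule depended on its settings. A pseudocount of 0.5 TPM gave 106 and one of 0.1 TPM gave 292, in each case with all 63 among them. A fold of 3 gave 21, and setting each mutant against its own wild type alone gave 173. With TMM-scaled CPM in place of TPM there were 59, of which 44 were among the 63, and with total-count CPM 75, of which 50 were. Under UNC0638, TMM-scaled CPM gave 14 genes higher on day 2 and 17 on day 14, and total-count CPM gave 16 on day 4. Genes called lower, none in the values reported, numbered 3 on day 2 and 1 on day 4 with TMM-scaled CPM and 1 on each of those days with total-count CPM. With a pseudocount of 0.5 TPM they numbered 1, 2 and 1 on days 2, 4 and 14, and with 0.1 TPM 4, 3 and 2. Of 76 single-gene differences called higher, 48 were marked as moved with TMM-scaled CPM, 10 with a pseudocount of 0.5 TPM, and none reversed under the alternatives run. This mark does not say if a call held. With TMM-scaled CPM the day 2 log2 difference of Gm12690 fell from 2.18 to 0.32, under the call threshold, and was not marked. That of 4930591A17Rik fell from 2.08 to 1.26 and was marked. The cause of these changes was not tested. Depth limits Rny3, Rpl35a-ps7 and Spint5 most, and no replicate bears on any value.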
